A study of Drosophila melanogaster with 24 samples.

Results

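The old female heads of this study set H3.3K36R mutant flies against H3.3Anull flies, the control genotype, to show how the head transcriptome differs once flies reach 21 to 25 days after eclosion. The 6 libraries whose titles give head, old and female were taken, 3 of each genotype, out of 24 libraries in the series. Both genotypes lack the autosomal H3.3 gene, since a null allele (H3.3A2x1) sits opposite the deficiency Df(2L)Bsc110, and all X chromosomes carry mutations of y and w. H3.3Anull females keep a wild-type H3.3B gene on the X, and H3.3K36R females carry only H3.3BK36R, in which lysine 36 is replaced by arginine. The genotype is therefore a contrast within a background that already lacks one H3.3 gene, and a wild-type strain was not part of it. Each library pooled the heads of 10 to 25 flies, separated by freezing, vortexing and sieving, so no value belongs to a single fly. Total RNA depleted of ribosomal RNA was sequenced as 100 nt paired-end reads.

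H3.3 is the histone H3 variant that is placed into chromatin outside of DNA replication, and in heads made mostly of cells that no longer divide it replaces H3 as flies age. Lysine 36 of H3 is methylated along transcribed genes by enzymes such as Set2, NSD and Ash1, and arginine at this place cannot take that mark or its acetylation. The fly head holds brain, eye, antenna, cuticle, muscle, fat body and blood cells, and bulk RNA mixes them all, so fewer cells of a type and less RNA per cell cannot be told apart.

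In the old female libraries 22880651 to 42763126 reads fell on genes. H3.3Anull replicate 2 and H3.3K36R replicate 3 stood apart, with at least 1 read on 69.2% and 59.4% of 3009 genes that are close to silent in heads, against 11% to 33.3% in the other 4. Both genotypes thus hold 1 such library, and results are also given without this pair. Markers of neurons and photoreceptors were abundant in all 6, and elav had 7749 to 8682 normalized counts. Ovary and gut markers were uneven: the eggshell gene Vm34Ca reached 143 normalized counts in H3.3Anull replicate 1, and the digestive protease Jon99Cii 1412 in H3.3K36R replicate 3, while 1 of 4 tested gut markers, the amylase gene Amy-p, was called higher in H3.3K36R. The H3.3 genes gave no call, with His3.3A at 513, 339 and 392 normalized counts in H3.3Anull replicates 1, 2 and 3 and 479, 494 and 405 in H3.3K36R (adjusted p = 0.555, limma). The deposited counts cannot separate the mutant from the wild-type His3.3B transcript.

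Of 12493 genes with at least 10 normalized counts in 3 libraries, 1350 (10.8%) passed an adjusted p of 0.05 in limma with Benjamini-Hochberg adjustment, and the absolute log2 fold change had a median of 0.70 among them. Of them 706 (5.65%) were higher and 644 (5.15%) lower in H3.3K36R. A differentially expressed gene (DEG) was called where the change was also more than 1 on the log2 scale, which held for 425 genes (3.4%), 282 (2.26%) higher and 143 (1.14%) lower in H3.3K36R. Fold changes are on the log2(normalized count + 1) scale, which understates low genes. In 412 of the 425 DEGs the libraries of the genotypes did not overlap, a pattern seen in 30.3% of all genes tested. Cytochrome P450, glutathione transferase and listed immune genes made up 31 of the 425, and the other 394 (255 higher, 139 lower) are the subject here. By adjusted p alone these families, in this order, were called at 31.7% of 82, 35.3% of 34 and 18.2% of 77 genes. This is above the 10.8% of all genes. The count of 1350 fell to 845 without H3.3K36R replicate 2, to 886 without H3.3Anull replicate 2, to 781 without H3.3Anull replicate 3 and to 699 without the pair that stood apart, while the 425 DEGs numbered 300 to 441. Nothing in the sources says that replicates came from separate crosses, so p-values measure the spread between pools. That spread was estimated over all 8 groups of the fit (23 libraries), not from the 6 old female libraries alone.

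**Figure D1:**
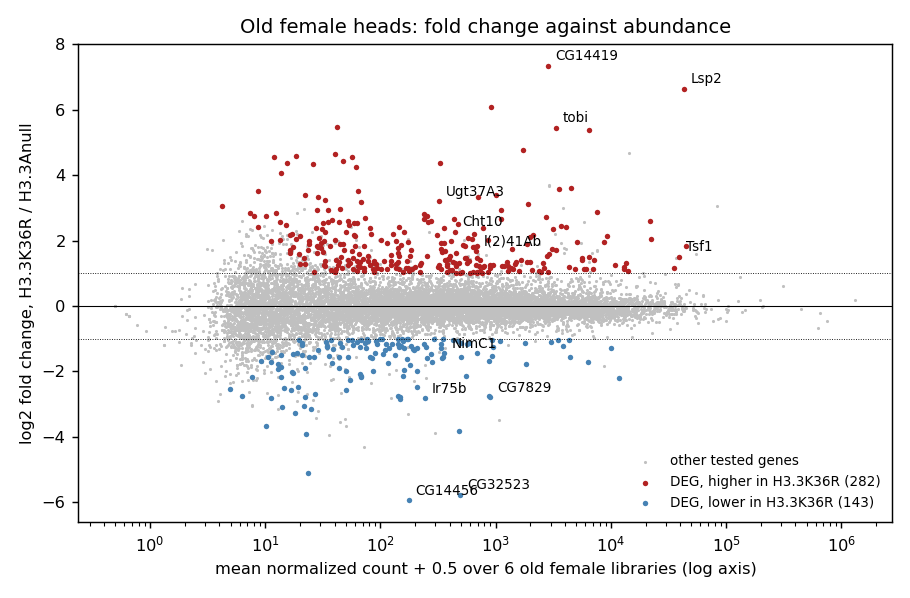
Log2 fold change (H3.3K36R over H3.3Anull) of each tested gene against its mean normalized count over the 6 old female libraries, on a log axis. Red points are the 282 higher DEGs and blue points the 143 lower DEGs, dotted lines mark a log2 fold change of 1 and −1, and the most abundant increase with a large fold change is that of Lsp2.

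The increases of the largest size included the storage proteins of larval blood. Lsp2, a hexamerin made by the fat body on chromosome arm 3L, had 6714, 458 and 113 normalized counts in H3.3Anull replicates 1, 2 and 3 and 142305, 72941 and 34212 in H3.3K36R (log2 fold change 6.65 ± 1.03 (SE), adjusted p = 0.000255). A further hexamerin, Lsp1beta, went from 639.5, 329 and 66.3 to 21267, 12625 and 3731 (5.37, adjusted p = 0.000982). For both genes every H3.3K36R library stood above every H3.3Anull library, which the naming rule required of the largest increases. Replicate 1 was the highest of each genotype. Both genes are best known from the larval fat body. Fat body markers did not all move with them, since apolpp, the precursor of the main lipid carrier of the blood, ranged from 321766 to 556446 normalized counts across H3.3Anull libraries and from 292210 to 616924 across H3.3K36R libraries. Of 14 tested hexamerin and fat body secretion genes 3 rose and none fell (21.4% called, against 10.8% of all genes). The median log2 fold change was 0.03 against −0.03 over all genes. asRNA:CR11538, which lies on the strand opposite to Lsp2, also rose (4.25), although not when only the 6 old female libraries were fitted (adjusted p = 0.0555), and reads of overlapping genes may not be fully separated.

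Single genes of sugar and one-carbon metabolism were also among the increases. tobi, an alpha-glucosidase known as a target of brain insulin, had 585, 71 and 58.9 normalized counts in H3.3Anull and 8996, 6676 and 3538 in H3.3K36R (5.45 ± 0.69, adjusted p = 3.68e-05). The gut marker and sugar enzyme gene Amy-p had 2539.7, 376 and 266 and 2142, 2057 and 5228 (2.16, adjusted p = 0.044), groups that overlapped, and its call was lost without any 1 library except H3.3Anull replicate 1 and without the pair that stood apart (1.35, adjusted p = 0.385). The other 3 gut markers tested did not pass, and the part of gut RNA in these increases was not tested. Of 20 sugar-digesting enzymes, tobi and Amy-p among them, 3 rose and 1 fell (20% called, against 10.8% of all genes). Only 1 rose without H3.3Anull replicate 2, without H3.3Anull replicate 3 or without the pair. Zw, the glucose-6-phosphate dehydrogenase that supplies NADPH, had 557, 472 and 513 and 1843, 1015 and 948 (1.24, adjusted p = 0.000572). The lowest H3.3K36R library of Zw lay above the highest H3.3Anull library by more than the whole range of the H3.3Anull group. Gnmt, the enzyme that spends S-adenosylmethionine to methylate glycine, had 2823, 454 and 985 and 4349, 6980.2 and 6540.1 (2.43, adjusted p = 0.0115). Its groups did not overlap, but the H3.3Anull libraries were far apart, and the call was lost without H3.3Anull replicate 2 (1.81, adjusted p = 0.0799) and without the pair that stood apart (1.72, adjusted p = 0.155). The list of 29 amino acid and one-carbon genes held 3 that rose and none that fell, with a median of 0.42. Its share called was 10.3%, near the 10.8% of all genes. Without H3.3Anull replicate 2, and also without the pair that stood apart, none of its genes was called, and 5 were called without H3.3Anull replicate 1 or without H3.3K36R replicate 3.

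Galk, the galactokinase that starts the use of galactose and a gene named after its values were seen, rose as well and had 1812, 1257 and 1175 normalized counts in H3.3Anull and 6438, 4861 and 3137 in H3.3K36R (1.73, adjusted p = 0.000665). A decrease was seen for Acox3, an acyl-CoA oxidase of peroxisomal fatty acid breakdown, from 817, 733 and 768 to 371, 344 and 322 (−1.16 ± 0.10, adjusted p = 5.9e-07). Enzymes of glycolysis and the citric acid cycle with nearby NADPH-producing enzymes gave 3 higher and 2 lower of 44, and 1 of 97 respiratory chain subunits (1.03%) and 1 of 85 ribosomal proteins (1.18%) were called, against 10.8% of all genes. In the first of these lists 1 to 4 genes were higher and 0 to 3 lower with 1 library left out, and 2 and 0 without the pair that stood apart. None of 31 contractile protein genes passed the test.

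Some genes for metal handling rose. Tsf1, the secreted transferrin that binds iron in the blood, had 38522, 11794 and 16605 normalized counts in H3.3Anull and 60764, 50832 and 55670.3 in H3.3K36R (1.50 ± 0.31, adjusted p = 0.00313). All 3 H3.3K36R libraries lay within a narrow band above the H3.3Anull libraries. The copper importer Ctr1A went from 684, 626 and 675 to 1138, 1151 and 929 (0.69, adjusted p = 7.11e-05), and the zinc transporter ZnT41F from 494, 412 and 448 to 1018, 933 and 802 (1.02, adjusted p = 2.77e-05). MtnD, a small metal-binding metallothionein, had 12.1, 6.46 and 6.14 and 44, 44.4 and 48.5 (2.39, adjusted p = 0.00848). Of 16 metallothionein, ferritin and iron genes 4 rose and none fell (25% called, against 10.8% of all genes), with a median of 0.26. Without the pair that stood apart 1 of them was called, and neither Tsf1 (1.14, adjusted p = 0.0552) nor MtnD (2.23, adjusted p = 0.0782) passed. Tsf1 also missed the threshold when only the 6 old female libraries were fitted (adjusted p = 0.0513). Of 41 solute carriers for sugar, amino acids and metals 3 rose and 2 fell (12.2% called), with a median of −0.11.

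**Figure D2:**
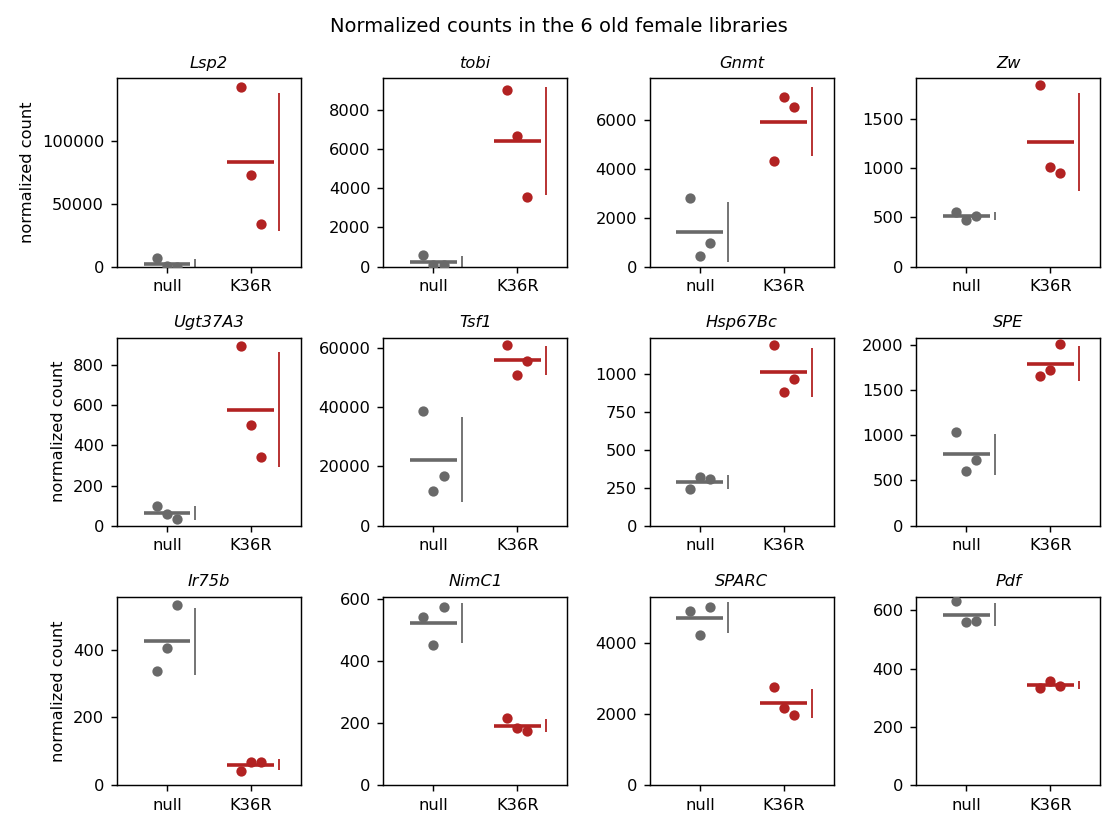
Normalized counts of 12 genes in each of the 3 H3.3Anull (grey) and 3 H3.3K36R (red) old female libraries, drawn from left to right as replicates 1, 2 and 3. Horizontal bars are group means and vertical bars the mean ± 1 SD (cut at 0), axes are linear from 0, and the genotypes do not overlap in any of the 12 panels. The choice of called genes favours this pattern, and the naming rule for the largest changes required it.

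Serpins and serine proteases of the blood, apart from the listed immune genes, formed another group of increases. Of 33 tested members of this list, 11 rose and 1 fell (36.4% called, against 10.8% of all genes), with a median of 0.45. SPE, the protease that cleaves the Toll ligand Spätzle, had 1040.1, 604 and 722 normalized counts in H3.3Anull and 1649.8, 1717 and 2006 in H3.3K36R (1.21, adjusted p = 0.000121). Spn28Dc, a serpin that restrains melanization, had 536, 447 and 406 and 780.2, 1008 and 1174 (1.08, adjusted p = 0.00211). For both genes the H3.3K36R libraries were all above the H3.3Anull libraries. Spn88Ea, a serpin named here after its values were seen, had 1154, 956 and 888 and 1735, 1565 and 1711 (0.75, adjusted p = 8.59e-05). Spn43Ad gave 0.86 (adjusted p = 0.00868; 0.0915 without the pair that stood apart), and the easter protease gene ea was the member that fell (−0.56, adjusted p = 0.0188). The number that rose was 7 without H3.3Anull replicate 2 or without H3.3Anull replicate 3, and 4 without the pair that stood apart.

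Several genes of the blood cell list were lower. NimC1, a phagocytosis receptor of plasmatocytes, had 542, 452 and 575 normalized counts in H3.3Anull and 216, 185 and 173 in H3.3K36R (−1.44 ± 0.16, adjusted p = 7.85e-06). lz, a Runx factor of crystal cells that is also used in the eye, had 789.8, 814 and 788 and 416, 265 and 427 (−1.14, adjusted p = 0.000333). In both cases all H3.3K36R libraries were below all H3.3Anull libraries. Basement membrane genes that blood cells and fat body secrete fell too: SPARC went from 4916, 4225 and 5007 to 2752, 2160.5 and 1981 (−1.05, adjusted p = 0.000113). The collagen IV chain vkg went from 5739, 5238 and 6349 to 3357, 2441 and 2689 (−1.04, adjusted p = 0.0031), and papilin (Ppn) from 18411, 17932 and 24297 to 12285, 9701 and 9216 (−0.96, adjusted p = 0.000837), both named after their values were seen.

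Of 19 tested genes of the blood cell list 8 fell and none rose (42.1% called, against 10.8% of all genes). The median was −0.66. The list includes lz and basement membrane genes such as SPARC, which are not markers of blood cells alone. This share is thus not a result for blood cells alone, and the falls of basement membrane genes above are not separate from it. A further member, NimC2, gave −1.24 (adjusted p = 0.0296). Its call was lost without H3.3K36R replicate 1, H3.3Anull replicate 1 or H3.3Anull replicate 2 (adjusted p = 0.148, 0.0731 and 0.108). The count of lower genes was 6 to 8 with any 1 library left out and 6 without the pair that stood apart. Hemolectin (Hml), a defining plasmatocyte gene, had 7145, 5011 and 7909.6 in H3.3Anull and 4015, 4504 and 3316 in H3.3K36R (−0.75, adjusted p = 0.00656), and missed the threshold without H3.3Anull replicate 3 (adjusted p = 0.0505). eater, another phagocytosis receptor, had a log2 fold change of −0.76 and did not pass (adjusted p = 0.0665). PPO1, the prophenoloxidase of crystal cells, had 439 to 735 normalized counts across H3.3Anull libraries and 517 to 778 across H3.3K36R libraries (adjusted p = 0.902), so the members did not move as one. In other heads the list's median was −0.02 in old males and −0.36 in young females.

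Cuticle and tanning genes went in both directions. Of 79 structural cuticle genes 9 rose and 3 fell (15.2% called, against 10.8% of all genes), with a median of 0.24. Twdlbeta, a Tweedle cuticle protein, had 24.8, 8.3 and 8.6 normalized counts in H3.3Anull and 121, 129.8 and 107 in H3.3K36R (3.19, adjusted p = 0.000113). Lcp65Ag2 had 13.5, 13.8 and 3.68 and 68, 89.8 and 76.1 (2.97, adjusted p = 2.89e-05). Both started from a low level, near the floor of the filter, in H3.3Anull heads. Ccp84Ag, a cuticle gene of the Antennapedia complex region, moved the other way, from 48.2, 40.6 and 51.6 to 8, 8.65 and 3.46 (−2.71, adjusted p = 0.00065). The chitinase gene Cht10, on arm 2L, was among the 10 genes with the smallest p, at 121, 199 and 141 and 644, 753 and 796 (2.27 ± 0.20, adjusted p = 7.42e-07).

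Within the yellow family, whose products act in melanin and pigment formation, the directions also split. yellow-f, an enzyme that converts dopachrome, had 322, 187 and 167 normalized counts in H3.3Anull and 666, 619 and 727 in H3.3K36R (1.63, adjusted p = 7.16e-05). Its close relative yellow-f2 had 706, 388 and 368 and 1146, 1131 and 947 (1.20, adjusted p = 0.0034). yellow-d fell from 390.0, 518 and 491 to 219, 226 and 241 (−1.02, adjusted p = 0.00064). The y gene itself, mutated in all of these flies, had 2.67 to 21.2 normalized counts over the 6 libraries and gave no call (adjusted p = 0.447).

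Chemosensory genes held some of the largest decreases. Ir75b, an ionotropic receptor of the antenna that responds to short carboxylic acids, had 337, 407 and 533 normalized counts in H3.3Anull and 41.3, 69.2 and 69.2 in H3.3K36R (−2.82 ± 0.34, adjusted p = 2.62e-05). Its neighbour in the same cluster, the acetic acid receptor Ir75a, had 279, 267 and 506 and 37.3, 79 and 69.2 (−2.49, adjusted p = 9.7e-05). The highest H3.3K36R library lay far below the lowest H3.3Anull library for both receptors. For the largest decreases, Ir75b among them, the naming rule asked for groups that do not overlap. The odorant receptor Or63a went from 77.3, 97.8 and 67.5 to 34.7, 34.6 and 33.5 (−1.20, adjusted p = 0.000448). These were not shared by receptors in general, of which 94 odorant, gustatory, ionotropic and pickpocket genes were tested. Of them 2 rose and 3 fell (5.32% called, against 10.8% of all genes), and the median was −0.10.

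Odorant-binding proteins, which carry odorants in the fluid around sensory neurons, gave 4 higher and 4 lower of 35. The share called was 22.9%, against 10.8% of all genes. Obp19d rose from 24408, 22730.3 and 18960.5 to 51687, 55109 and 40787 normalized counts (1.16, adjusted p = 0.00014). Obp49a fell from 4415, 4515 and 5675 to 3049, 2516 and 2538 (−0.85, adjusted p = 2.06e-05), and Obp56h from 368, 314 and 311 to 191, 138 and 120.0 (−1.16, adjusted p = 0.00728). Without the pair that stood apart Obp56h did not pass (−1.05, adjusted p = 0.0719) and 2 genes of the list were lower. The number higher was 1 without H3.3K36R replicate 2 and 2 without H3.3Anull replicate 3, and 3 or 4 genes were lower with any 1 library left out.

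Genes of light signalling moved little but mostly downward. Of 30 phototransduction genes 5 fell and 1 rose (20% called, against 10.8% of all genes), with a median of −0.20. inaF-B, a small protein needed for the TRP channel, had 2150.4, 2038 and 1969.7 normalized counts in H3.3Anull and 1131, 1125 and 1073 in H3.3K36R (−0.89, adjusted p = 0.000103), although it shares its locus with other inaF genes. The TRPL channel gene trpl had 39451, 43944 and 36929 and 23186, 24529 and 25889.5 (−0.71, adjusted p = 0.00323). The scaffold gene inaD, named after its values were seen, had 16982, 14731 and 15480.3 and 11845, 11510.0 and 11289.8 (−0.44, adjusted p = 0.00193). ninaB, an enzyme that makes the retinal chromophore from carotenoids, was the member that rose, from 993, 758 and 859.6 to 1447, 1492 and 1202 (0.67, adjusted p = 0.000516). ninaE, the main rhodopsin, was at 843126 to 916752 normalized counts across H3.3Anull libraries and at 610707 to 657947 across H3.3K36R libraries, groups that did not overlap, but it did not pass the test (−0.47, adjusted p = 0.251). The number of lower genes was 3 without H3.3K36R replicate 2, without either H3.3Anull replicate 2 or 3, and without the pair that stood apart.

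Neuropeptide genes were called more often lower than higher, 7 against 2 of 39 (23.1% called, against 10.8% of all genes). Pdf, the peptide that couples the clock neurons, had 632, 559 and 565 normalized counts in H3.3Anull and 332, 358 and 339 in H3.3K36R (−0.77 ± 0.13, adjusted p = 0.000713), and its receptor Pdfr had 2460.3, 2210.4 and 2104 and 3639.8, 3381 and 3227 (0.60, adjusted p = 0.00014). The ligand was thus lower and the receptor higher, each with no overlap of the genotypes. The tachykinin gene Tk fell from 898, 1044 and 962 to 622, 678 and 647 (−0.57, adjusted p = 0.00103), and the allatostatin gene AstC from 1772, 1753 and 1644 to 1120.3, 1325 and 1285 (−0.47, adjusted p = 0.00669), both named after their values were seen. The clock gene tim went from 4772, 4762 and 6265 to 4152, 2555 and 2658 (−0.78, adjusted p = 0.00574), a call that was lost when only the 6 old female libraries were fitted (adjusted p = 0.0533), and the hour of collection is not given in the sources used here. With 1 library left out 4 to 6 of the neuropeptide genes were lower, 4 without H3.3Anull replicate 2, without H3.3Anull replicate 3 and without the pair that stood apart. The synapse and ion channel list had 2 of 47 lower and none higher (4.26% called, against 10.8% of all genes), with a median of −0.12. None of its genes was called without the pair, and elav, a marker of all neurons, gave −0.11 (adjusted p = 0.659).

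Among hormone genes, takeout (to), a carrier protein under clock control in head fat body and sensory tissue, fell from 778, 536 and 906 to 292, 333 and 149 normalized counts (−1.56, adjusted p = 0.00156). ImpE1, first described as induced by ecdysone, fell from 172, 303 and 269 to 42.7, 44.4 and 119 (−1.97, adjusted p = 0.000129). Lgr3, the receptor of the relaxin-like peptide Ilp8, fell from 79.4, 103 and 89.6 to 38.7, 35.7 and 60.0 (−1.03, adjusted p = 0.00201). Jheh2, an epoxide hydrolase that breaks down juvenile hormone, rose from 2117, 1518 and 1829 to 3176, 3855 and 2596 (0.81, adjusted p = 0.00479). Only ImpE1 passed among 26 ecdysone genes, whereas 5 rose and 2 fell among 25 juvenile hormone and takeout-like genes. The shares called were 3.85% and 28%, against 10.8% of all genes. The number of juvenile hormone and takeout-like genes that rose was 3 without H3.3K36R replicate 1, without H3.3K36R replicate 2 or without H3.3Anull replicate 3.

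Stress genes went in both directions. The small heat shock protein gene Hsp67Bc had 239.6, 325 and 308 normalized counts in H3.3Anull and 1195, 881 and 967 in H3.3K36R (1.80 ± 0.20, adjusted p = 6.5e-06), and 1 other of 38 heat shock and chaperone genes was called, in the lower direction. Dcp-1, an effector caspase, fell from 260.2, 280.4 and 254 to 148, 135 and 190.4 (−0.76, adjusted p = 0.00346), and skl, an activator of cell death, from 83.7, 118 and 104 to 45.3, 63.8 and 42.7 (−1.01, adjusted p = 0.00354), although skl did not pass without the pair that stood apart (−0.79, adjusted p = 0.0772). Of 33 genes of DNA damage, apoptosis and JNK responses 4 rose and 3 fell (21.2% called, against 10.8% of all genes). Of 27 antioxidant genes 4 rose and 1 fell (18.5%). Without the pair 1 rose and 1 fell in the former list and 1 rose in the latter, and with 1 library left out 1 to 4 and 1 to 3 rose. Outside the lists, and named after their values were seen, the DNA polymerase theta gene PolQ rose from 244, 296 and 198 to 1423, 2961 and 1557 (2.94 ± 0.27, adjusted p = 9.04e-07) and the strand break repair gene XRCC1 from 198, 215 and 221 to 467, 469.5 and 458 (1.14, adjusted p = 2.76e-05). AGO3, an Argonaute of the piRNA pathway that silences transposons, rose from 34.7, 29.5 and 28.2 to 111, 106 and 119 (1.83, adjusted p = 0.00535), but did not pass without the pair that stood apart (1.76, adjusted p = 0.0553). Of 20 piRNA pathway genes 2 rose and 1 fell (15% called, against 10.8% of all genes). With any 1 library left out 1 of the 20 rose, and none was called without the pair. None of 30 genes for writers, erasers and readers of H3K36 and H3K9 methylation was called.

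SteXh:CG42398, a Stellate-type gene on an unplaced scaffold, had 0.709, 0 and 2.46 normalized counts in H3.3Anull and 111, 77.9 and 56.5 in H3.3K36R. Stellate genes are a repeated family that piRNAs keep silent in the male germ line. Nearly identical copies share reads, so the signal cannot be assigned to this copy, and with 3 reads in all of H3.3Anull no fold change is given. Its call in old males and young females was not reached (1.86, adjusted p = 0.194, and 0.86, adjusted p = 0.647).

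UDP-glycosyltransferases, which attach sugars to small lipophilic molecules and belong to neither excluded detoxification family, were also changed. Ugt37A3 had 99.3, 57.2 and 33.2 normalized counts in H3.3Anull and 892, 499.8 and 341 in H3.3K36R (3.20 ± 0.51, adjusted p = 0.000307), with a wide spread inside H3.3K36R but no overlap. Over 64 glycosyltransferases, esterases and drug transporters 9 rose and 2 fell (17.2% called, against 10.8% of all genes), with a median of 0.21. The number that rose was 3 without H3.3K36R replicate 1, 5 without H3.3K36R replicate 2, 4 without H3.3Anull replicate 3 and 5 without the pair that stood apart.

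**Figure D3:**
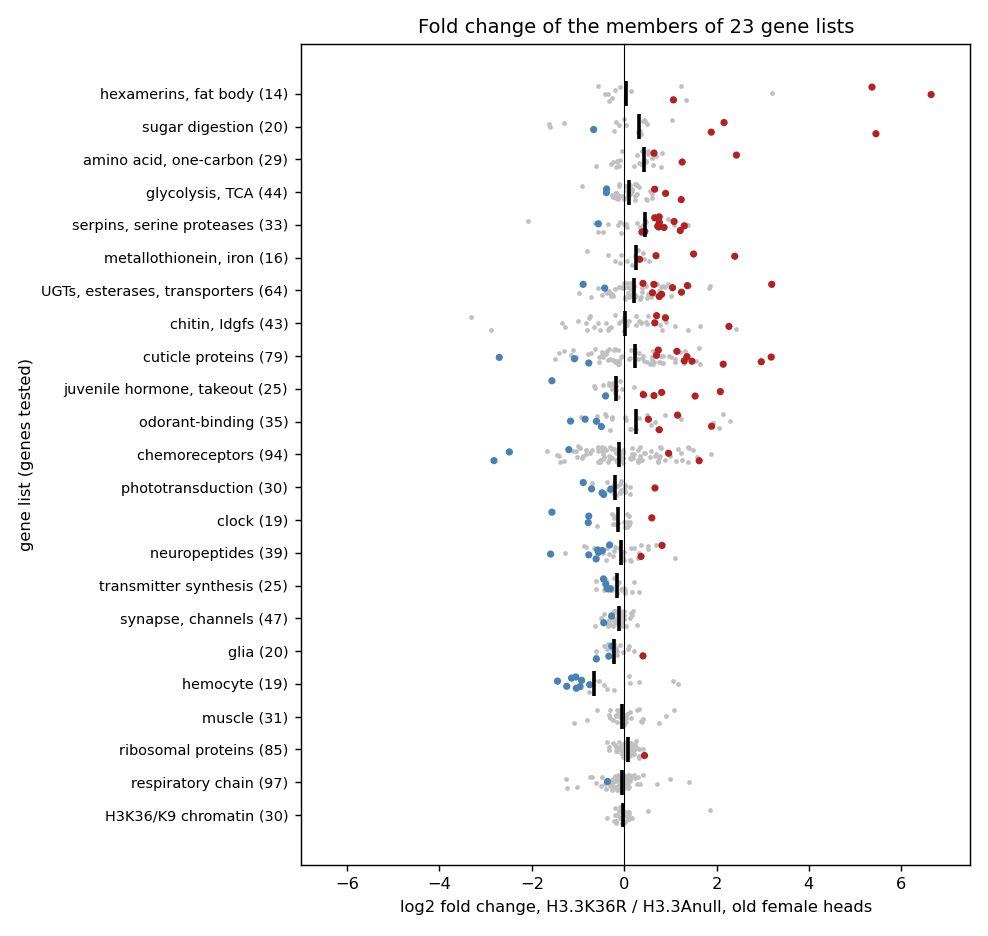
Log2 fold change (H3.3K36R over H3.3Anull, old female heads) of the tested members of 23 gene lists, 1 point a gene. Red points rose and blue points fell at an adjusted p below 0.05, grey points did not pass, and black ticks are list medians, which run from −0.66 for blood cell genes to 0.45 for serpins and proteases.

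Genes known only by a CG number held many of the largest decreases. CG14456, on arm 3L, had 518, 224 and 295 normalized counts in H3.3Anull and 6.67, 3.25 and 3.46 in H3.3K36R (−5.95 ± 1.09, adjusted p = 0.00115). CG32523, on the X, had 1039, 882 and 962 and 46.7, 3.25 and 25.4 (−5.78, adjusted p = 3.6e-06), and CG7829, on 3R, had 1466, 1699 and 1458 and 323, 104 and 314 (−2.80, adjusted p = 2.12e-05). CG2209, an X-linked gene inside rsh, had 48.9, 39.7 and 47.9 and 1.33, 0 and 0, that is 1 read in all H3.3K36R libraries, so no fold change is given. Of the large increases, the methuselah-like receptor gene mthl6 had 0.709, 9.23 and 2.46 and 62.7, 70.3 and 137 (4.45, adjusted p = 0.000364). lncRNA:CR45625 on the X had 2.13, 3.69 and 0 and 45.3, 45.4 and 55.4 (4.34, adjusted p = 5.98e-05). In every H3.3Anull library both genes lay below the count that the filter asks for. Among the old female libraries they reached it only in H3.3K36R, and few H3.3Anull reads set these fold changes. Their size is therefore uncertain. Over the settings that kept every old female library, mthl6 ran from 3.41 to 4.70 and lncRNA:CR45625 from 2.98 to 4.79. Non-coding RNA genes were called at 8.44% of 995 and pseudogenes at 19.3% of 83, against 11.1% of 11180 protein-coding genes. Among DEGs the order differed, with 5.93% of non-coding RNA genes, 12% of pseudogenes and 3.09% of protein-coding genes.

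The smallest p over all genes belonged to l(2)41Ab in the centromere-proximal part of arm 2R. It had 316, 322 and 323 normalized counts in H3.3Anull and 1046, 1055 and 1006 in H3.3K36R (1.69 ± 0.11, adjusted p = 1.53e-08), with nearly the same value in each replicate of a genotype. In the 2 Mb next to the centromeres 20 genes rose and 7 fell of 176 (15.3% called, against 10.8% of all genes). Among DEGs 13 were higher and 1 lower there (7.95% of the 176, against 3.4% of all genes). The arms differed: next to the centromere of the X 1 rose and 5 fell of 76, on 2L 9 rose and 2 fell of 67, and on 3L 6 rose and none fell of 14. The share called was 13.3% on the X, where H3.3B lies, and 9.60% to 11.1% on 2L, 2R, 3L and 3R. On chromosome 4 it was 10.6% of 104 genes, and 0.96% were DEGs.

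A run of X-linked genes next to w rose together, and it includes the gene with the largest fitted increase. In the reference annotation (BDGP6.54) these 7 genes span positions 2790599 to 2924426 of the X, and all 7 lie within the long interval of kirre (2740384 to 3134532), a cell adhesion gene that gave a log2 fold change of 0.13 (adjusted p = 0.55). CG14419 had 137, 63.7 and 3.68 normalized counts in H3.3Anull and 6341, 5268 and 5413 in H3.3K36R (7.35 ± 1.04, adjusted p = 0.000103), and CG3588 had 65.2, 72.9 and 2.46 and 2141, 1509 and 1687 (6.10, adjusted p = 0.000219). w, the eye pigment transporter, had 7.09, 45.2 and 13.5 and 89.4, 94.1 and 123 (2.54, adjusted p = 0.000635). In H3.3Anull replicate 3 CG14419 and CG3588 were both near 0, below the level of the other H3.3Anull libraries. The rest of the run, named after its values were seen, was at 0 to 2.84 normalized counts in H3.3Anull: CG14416 reached 21.3, 28.1 and 26.5 in H3.3K36R, CG14417 reached 13.3, 15.1 and 9.23, CG14418 reached 33.3, 27 and 46.1 and CG3526 reached 12, 15.1 and 19.6. With so few H3.3Anull reads, no fold changes are given for the rest of the run. Among the old female libraries these genes reached the count that the filter asks for only in H3.3K36R. Genes low in both genotypes could not be tested, so the length of the run rests in part on the filter. CG14417 missed the threshold without H3.3K36R replicate 2 (adjusted p = 0.0623) or without H3.3Anull replicate 3 (0.08), and in edgeR (0.0542). The neighbours CG32795 (0.10, adjusted p = 0.593) and CG14424 (−0.54, adjusted p = 0.492) did not pass. Beyond CG14424 the genes from CG32793 to CG14423 had positive values, 0.80 to 2.83, that did not pass either. The largest of these, CG14421 (adjusted p = 0.0811), was called in old males (4.28, adjusted p = 0.0106). CG3603 and rst, which follow, were negative (−0.75 and −0.35). The run rose in old males too, where CG14419 gave 9.44 and w 1.59, and in young females, where CG14419 gave 7.78 and w 3.96. The w mutations of the 2 genotypes' X chromosomes are not described in the sources used here, and a difference of allele or of flanking chromosome cannot be told apart from one of the histone mutation.

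**Figure D4:**
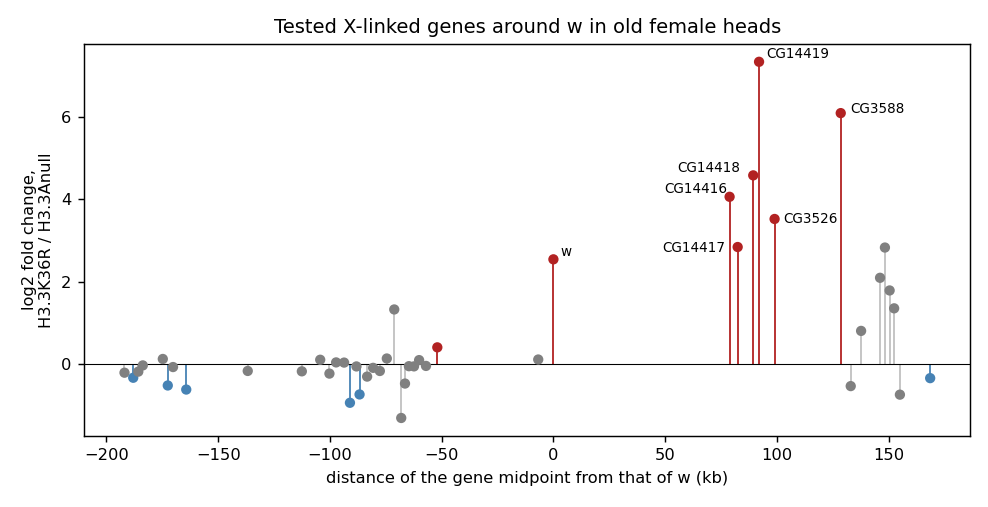
Log2 fold change in old female heads of the tested X-linked genes around w, placed by the distance of their midpoints from that of w in kb. Red and blue points passed an adjusted p of 0.05, grey points did not, and the 7 labelled genes, from w to CG3588, all rose.

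The old male heads, which share no library with the old females, gave the DEGs values of their own. Of the 425 DEGs, 408 (96.0%) had the same sign in old males, as against 71.4% of all genes tested, and the median log2 fold change of those higher in old females was 1.31 in old males against 1.63. For those lower it was −1.06 against −1.50. In old males 8% of genes passed the test and 3.36% were DEGs. In young females 3.89% and 1.92% did so, and 349 of the 425 (82.1%) had the same sign, against 61.0% of all genes, with medians of 0.70 and −0.62. DEGs of the same direction numbered 111 in young females, or 26.1% of the old female and 46.3% of the young female DEGs.

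Bin1, a Sin3-associated factor also called SAP18, differed between the sexes: it had 296, 365 and 311 normalized counts in old female H3.3Anull and 884, 798 and 855 in H3.3K36R (1.39 ± 0.13, adjusted p = 1.3e-06), whereas the log2 fold change was 0.06 in old males and 0.02 in young females. The difference between the sexes was 1.32 (adjusted p = 0.00805, interaction in limma). CG6870 fell more in old females, from 2778, 2099.7 and 3626 to 803, 877 and 756 (−1.77), than in old males (−0.37, difference −1.40, adjusted p = 0.0159). CG12766 rose in old females, from 44.7, 43.4 and 28.2 to 220.1, 111 and 153 (2.01), and gave −0.71 in old males. Only 6 genes (0.048%) passed this interaction, and 670 (5.36%) had an unadjusted p below 0.05. The 6 became 3 without H3.3K36R replicate 1, 1 without H3.3K36R replicate 3, 10 without H3.3Anull replicate 1 and 2 without the pair that stood apart.

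The genotype difference depended on age for more genes. In 124 genes (0.993%) the old and young female differences were unequal (adjusted p below 0.05), with a more positive value in old heads for 83 and a more negative one for 41. Among the 10 with the smallest p was Acox3, at −1.16 in old and 0.06 in young females (difference −1.22, adjusted p = 0.000276). CG11211 went from 1615, 1435 and 1512 to 257, 172 and 254 normalized counts in old females (−2.76 ± 0.23) and gave 0.10 in young females (difference −2.85, adjusted p = 0.000276). CG8343 fell from 9321, 9823 and 10017 to 2410.1, 2928 and 3608 in old females (−1.72) against 0.22 in young ones. In neither gene did any old H3.3K36R library come near the H3.3Anull range.

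Increases that were larger in old females included Hsp67Bc, at 1.80 in old and −0.09 in young females (difference 1.89, adjusted p = 0.00241). SPE gave 1.21 and 0.12 (difference 1.10, adjusted p = 0.0367), and yellow-f gave 1.63 and −0.20 (difference 1.82, adjusted p = 0.00684). Ugt37A3 gave 3.20 and −0.46 (difference 3.65, adjusted p = 0.0178). Other genes were changed at both ages: Cht10 gave 2.27 and 2.80, and XRCC1 1.14 and 1.40. The interaction count was 73, 53, 208, 63 and 36 without H3.3K36R replicate 1, H3.3K36R replicate 2, H3.3Anull replicate 1, H3.3Anull replicate 2 and H3.3Anull replicate 3, and 43 without the pair that stood apart.

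**Figure D5:**
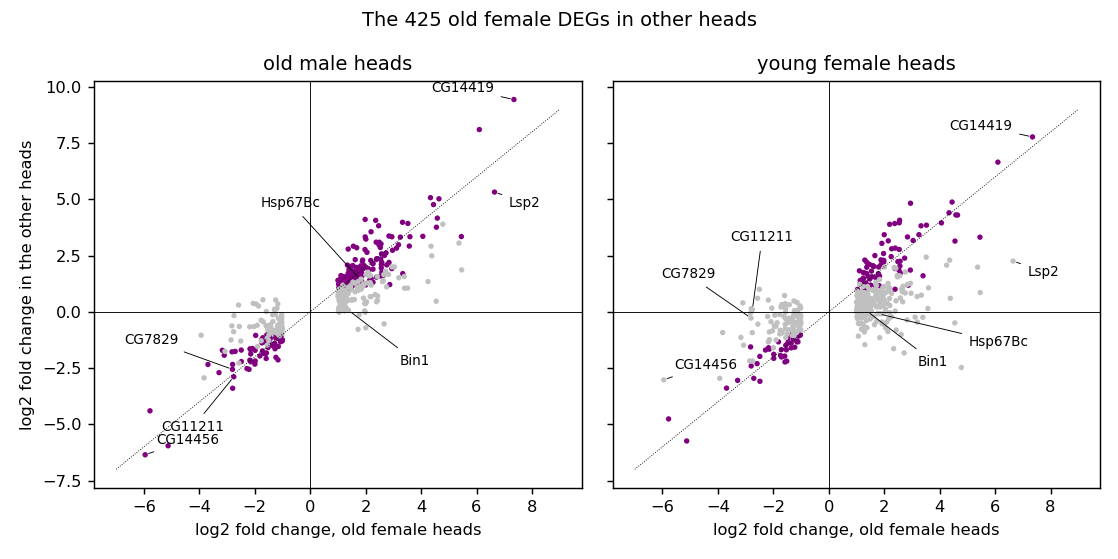
Log2 fold change of the 425 old female DEGs (horizontal axis) against that of the same genes in old male heads (left) and young female heads (right). Purple points were DEGs of the same direction in the other heads (216 and 111), grey points were not, and the dotted line marks equal values, with Bin1 near 0 in both panels and Hsp67Bc, CG7829 and CG11211 near 0 only in young females.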

How the data were processed

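Head RNA of 24 libraries was measured, 3 for each combination of sex, age and genotype, and groups and replicate numbers were taken from the sample titles. The authors aligned reads to dm6 with STAR 2.7.7a, counted them on genes with featureCounts (Subread 2.0.3) and scaled them with DESeq2 1.34.0, per the paper's methods and the submitters' processing notes. The deposited signal is a normalized count, the read count of a gene divided by the library's size factor. Labels of the table name a forward strand setting, with no further detail. Multiplying by the size factors gave whole reads for 100% of values within 0.01 reads, so depth was known. All value columns were mapped to samples.

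The fit omitted replicate 2 of young male H3.3K36R, since the study removed 1 outlying sample and the mean counts of its supplementary table match only the 23 other libraries. Genes with at least 10 normalized counts in 3 libraries were fitted as log2(normalized count + 1) with limma 3.58.1 (R 4.3.3, trend, 1 coefficient for each of 8 groups, two-sided, Benjamini-Hochberg over 12493 genes). The sex and age interactions came from the same fit. Symbols (17526 of 17606 genes) and positions came from the BDGP6.54 annotation, whose release may differ from that of the authors.

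Alternatives were pseudocounts of 0.5 and 5, other filters, upper-quartile scaling, edgeR 4.0.16 and DESeq2 1.42.0 on the recovered reads, weights for libraries, a replicate block, other sets of libraries and leaving out each library. Leaving out the pair with most reads on silent genes, and the fit of the 12 old libraries for the old female contrast, were chosen after seeing the data. The scripts were tested on simulated data.

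The members and gene lists were chosen with earlier results of these data known. tobi was taken out of the juvenile hormone list and Lsp1beta out of the blood cell list after values were seen, since each stood in another list. Named genes were the 12 largest increases and decreases outside the excluded families with no overlap and 50 normalized counts in some library, up to 4 called members of each list, the H3.3, roX, w and y genes, the genes of the interactions, and the 10 with the smallest p. Others are said to be named after their values were seen. Neither sequences nor repeats were analysed here.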

Additional observations from a re-analysis of the deposited data

Results flagged for a closer look

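For 6 genes the H3.3K36R effect differed between old females and old males (female minus male difference in log2 fold change, adjusted p of limma's interaction in brackets). Bin1 gave 1.32 (0.00805) and CG12766 2.72 (0.0159), both more positive in females. CG6870 gave −1.40 (0.0159), the extracellular matrix gene Tig −1.93 (0.0147), CG14607 −2.92 (0.0178) and the ribosomal pseudogene 28SrRNA-Psi:CR40596 −3.76 (0.0147). Tig rose in old males (2.67) and had 8292, 8178 and 7986 normalized counts in old female H3.3Anull and 19145, 12305 and 10884 in H3.3K36R (0.75, adjusted p = 0.0279), but its own call in old females was lost without H3.3K36R replicate 1 (adjusted p = 0.156) and without H3.3Anull replicate 1, 2 or 3 (0.0559, 0.0727 and 0.0846), as well as with only the 6 old female libraries fitted (0.0529). CG14607 and 28SrRNA-Psi:CR40596 rose in old males (3.22 and 3.32) with values of 0.31 and −0.44 in old females, neither of which passed. Ribosomal RNA was depleted before sequencing, so counts of a ribosomal pseudogene are uncertain.

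For 26 of the named genes, Bin1 and CG12766 among them, the effect differed between old and young females (old minus young difference, adjusted p in brackets). Those more positive in old heads in metabolism, transport and detoxification were Ugt37A3 at 3.65 (0.0178), ZnT41F at 1.04 (0.00684) and the eye pigment transporter bw at 0.88 (0.0423). Serpins and proteases were Spn88Eb at 2.76 (0.019), Spn28Dc at 1.31 (0.0381), SPE at 1.10 (0.0367) and Ser7 at 0.89 (0.0367). The call of Spn88Eb in old females (1.30, adjusted p = 0.0343) was lost in edgeR and in DESeq2. It was also lost without replicate 2 or 3 of either genotype and without the pair that stood apart (0.84, adjusted p = 0.335). Hsp67Bc gave 1.89 (0.00241), yellow-f 1.82 (0.00684), Bin1 1.36 (0.0017), bbg 1.18 (0.00299) and l(2)41Ab 1.04 (0.00226). Genes with a CG number were CG12766 at 2.58 (0.00746), CG34054 at 2.15 (0.00299), CG13877 at 1.75 (0.0139), CG6357 at 1.56 (0.00181), CG11964 at 0.99 (0.00226) and CG15739 at 0.87 (0.0248).

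Those more negative in old heads were CG11211 at −2.85 (0.000276), CG7829 at −2.53 (0.014), CG8343 at −1.94 (0.00226) and Acox3 at −1.22 (0.000276). yellow-d gave −1.19 (0.0249), the C-type lectin lectin-24Db −1.05 (0.0446), the amino acid transporter mnd −0.74 (0.0151) and the midline glia gene wrapper −0.63 (0.0321). CG34054 was called in opposite directions, at 1.07 in old and −1.08 in young females (adjusted p = 0.00469 and 0.00986), but its call in old females was lost without H3.3Anull replicate 2 together with H3.3K36R replicate 3 (0.86, adjusted p = 0.0879).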

How the results depend on the processing

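The 1350 genes called in old females became 781 to 1195 with 1 library left out, and 699 without the pair that stood apart. The count was 1055 with only the 6 old female libraries in the fit, 1262 in edgeR, 1665 in DESeq2 and 1543 with a replicate block. The 425 DEGs became 300 to 441 with 1 library left out, 328 without the pair, and 447 with the block. Same-numbered libraries of the genotypes had correlations of 0.331, −0.100 and −0.346 of their deviations from the group means. With 3 libraries a group these values cannot show whether the numbers mark a shared batch. The block gave 7 and 148 genes for the sex and age interactions. The 6 genes of the sex interaction became 38 in DESeq2, 23 with weights for single libraries, 2 without the pair and 1 to 10 with 1 library left out. The 124 genes of the age interaction became 276 in DESeq2, 39 with only the 12 female libraries, 43 without the pair and 36 to 208 with 1 library left out. Upper-quartile scaling moved the median of all genes from −0.03 to −0.06. Of 166 named genes 159 were called, none of which changed sign. Under the 20 alternatives 82 of them kept their call throughout, 76 lost it at least once, and SteXh:CG42398 kept it wherever it was tested, which was not the case without the pair. Of the genes that were not called, CG14607 (0.31) ranged from −0.28 to 0.64 with 1 library left out, and lncRNA:roX1 (−0.26) from −1.05 to 0.16, with 0.11 without the pair and 0.17 with weights for single libraries. With 3 pools a genotype, small differences may have been missed, and the smallest detectable difference was not estimated. The cause of these shifts was not tested.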
